A study of Mus musculus with 18 samples.

Results

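The genes described are 10 immediate early genes of dissociated mouse skin: Fos, Fosb, Jun, Junb, Egr1, Atf3, Ier2, Dusp1, Klf4 and Zfp36. They were taken by name from the 32285 genes counted, and all 10 passed the filter on low counts in fibroblasts, macrophages and muscle cells. Dorsal dermis came from 18 wild-type male C57BL/6J mice of about 54 days, an age at which the hair follicles rest (telogen), kept in 12 h of light and 12 h of darkness. Hours after lights on are written as zeitgeber time (ZT), and 3 mice were taken at each of ZT2, ZT6, ZT10, ZT14, ZT18 and ZT22. Replicates 1, 2 and 3 of a zeitgeber time were collected on the first, the second and the third day, and each mouse gave 1 droplet library, so the mouse, its day and its dissociation cannot be told apart. The skin was minced and digested with warm collagenase for 1.5 h before living cells were sorted.

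Immediate early genes are switched on within minutes of a stimulus by transcription factors that are already present in the cell, with no need for new protein. Fos, Fosb, Jun and Junb encode subunits of the dimeric AP-1 transcription factor, Egr1, Atf3 and Klf4 encode other transcription factors, Ier2 encodes a small nuclear protein, Dusp1 encodes a phosphatase that switches off mitogen-activated protein kinases, and Zfp36 encodes tristetraprolin, which directs the decay of AU-rich mRNAs. Warm enzymatic dissociation is known to switch on genes of this class. Undissociated skin was not analysed here, so RNA made in the animal and RNA made during dissociation cannot be told apart here.

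Promoters are shown because they can carry binding sites through which genes of this class are switched on. RefSeq promoter windows of GRCm38.p6 were matched for 8 of the 10 genes, all but Egr1 and Ier2. In the 250 bases before the start, the letters TGACG, the core of the cAMP response element, were found on either strand in 6 of the 8 windows (Atf3, Dusp1, Fos, Fosb, Junb and Klf4) and in 17.8% of all 32851 windows of the same length. The whole element TGACGTCA, which holds the core on both strands, was found in 1 of 8 (Dusp1, 143 bases before the start) and in 1.55% of all windows. A CArG box, the motif that serum response factor binds, was found in 1 of 8 (Zfp36, 58 bases before the start) and in 1.47% of all windows, and TATAAA on the coding strand in 1 of 8 (Fos, 33 bases before the start) and in 7.59%. The AP-1 motif TGANTCA was found in 0 of 8 and in 6.75% of all windows. Only these patterns within 250 bases were searched. Sites with other letters or farther from the start were not counted, so a motif not found here does not show that a gene lacks such sites. The last 150 bases before the start follow 5′ to 3′ on the coding strand for 5 of the genes, with the cAMP response elements and cores, or for Zfp36 the CArG box, in capitals.
Fos (chr12:85473740-85473889, plus strand): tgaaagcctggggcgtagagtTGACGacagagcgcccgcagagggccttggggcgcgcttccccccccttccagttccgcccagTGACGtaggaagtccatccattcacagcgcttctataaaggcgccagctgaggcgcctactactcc
Fosb (chr7:19310046-19310195, minus strand): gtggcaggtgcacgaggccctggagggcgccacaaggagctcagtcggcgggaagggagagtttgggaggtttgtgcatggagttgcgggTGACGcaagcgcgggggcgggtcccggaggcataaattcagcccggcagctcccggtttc
Junb (chr8:84978749-84978898, minus strand): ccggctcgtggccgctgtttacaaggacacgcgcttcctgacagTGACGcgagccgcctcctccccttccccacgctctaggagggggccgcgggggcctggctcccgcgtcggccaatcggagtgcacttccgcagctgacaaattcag
Dusp1 (chr17:26508473-26508622, minus strand): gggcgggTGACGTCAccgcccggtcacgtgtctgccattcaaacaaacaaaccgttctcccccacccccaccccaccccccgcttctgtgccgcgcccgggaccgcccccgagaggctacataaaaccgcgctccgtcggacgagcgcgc
Zfp36 (chr7:28379229-28379378, minus strand): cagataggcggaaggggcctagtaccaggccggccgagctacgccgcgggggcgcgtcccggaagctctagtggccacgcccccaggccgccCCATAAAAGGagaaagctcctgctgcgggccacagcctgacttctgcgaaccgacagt

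The files held 23990 barcodes, of which 16877 passed the filters on cells, 177 to 1998 per library with 3777201 to 40094033 unique molecular identifiers (UMIs, each standing for 1 captured transcript). Cells were clustered without the 10 genes, and clusters were named from marker genes. Fibroblast-like cells numbered 12127 in 10 clusters, with 3 to 6 of 6 fibroblast markers detected, and 3 of 6 in cluster 5, the largest. Naming single cells by marker scores, an alternative, gave 3702 fibroblasts. Macrophage-like cells numbered 1682 in 2 clusters with 8 of 8 macrophage markers detected in both, and muscle-like cells 735 in 1 cluster with 7 of 7 muscle markers. They are called fibroblasts, macrophages and muscle cells from here on, and the UMIs of a type were added up within each library (pseudobulk) where it had at least 20 cells, which left 18, 17 and 12 libraries. ZT6 replicate 2 and ZT10 replicate 3 shared 89 barcodes, of 164 found in more than 1 library, and the calls of members are also given without these 2 libraries where they changed. A level is the number of UMIs per 10000 UMIs of the same cells. A gene was called where the p-value of edgeR's quasi-likelihood test, adjusted over all genes tested, was under 0.05, and the share of all genes called in the same comparison is given beside the count.

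In fibroblasts, all 10 genes had their lowest mean level at ZT14, 2 h after lights off, as did 17.9% of all genes tested. Ier2, Klf4 and Jun differed among the 6 zeitgeber times (3 of 10 genes called, against 8.72% of all genes). The 10 genes share the same libraries, so their agreement is that of 18 mice and not of 10 independent measurements.

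Ier2 stood at 2.91, 3.14 and 3.29 UMIs per 10000 in the 3 libraries of ZT14 (mean 3.11 ± 0.189, SD, n = 3), at 4.28, 4.68 and 4.79 at ZT18 (4.58 ± 0.266) and at 6.06, 6.30 and 6.84 at ZT22 (6.40 ± 0.398). All 3 libraries of ZT14 lay below every library of the other times, and those of ZT22 lay above those of ZT18 and overlapped those of ZT6. The range between the highest and the lowest zeitgeber time was 1.09 on the log2 scale (edgeR, adjusted p = 0.000255). Klf4, a zinc finger transcription factor, was at 10.4, 12.3 and 12.3 at ZT14 (11.7 ± 1.13), at 11.4, 12.7 and 13.7 at ZT18 (12.6 ± 1.17) and at 15.6, 17.1 and 20.2 at ZT6 (17.6 ± 2.37). The libraries of ZT14 and ZT18 overlapped each other, and both groups lay below all libraries of the other 4 times (log2 range 0.66, edgeR, adjusted p = 0.00856). Jun was at 12.4, 12.6 and 14.9 at ZT14 (13.3 ± 1.4), at 13.9, 15.2 and 22.2 at ZT18 (17.1 ± 4.45) and at 20.5, 21.1 and 24 at ZT22 (21.9 ± 1.90). For Jun the libraries of ZT14 overlapped those of ZT18 and no others, with a log2 range of 0.78 (edgeR, adjusted p = 0.0416). This call was lost without the 2 libraries that share barcodes (adjusted p = 0.0603), where Fosb (0.0334) and Egr1 (0.0414) were called in its place (4 of 10, against 5.65% of all genes), and in 12 of the 18 fits that left out 1 library, whereas Ier2 and Klf4 were called in each of the 11 alternative fits tried.

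Fos, the partner of Jun in AP-1, was at 15.3, 15.5 and 17.5 at ZT14 (16.1 ± 1.21), at 23.9, 24 and 25.7 at ZT10 (24.5 ± 1.05) and at 17.2, 23.1 and 28.9 at ZT6 (23.1 ± 5.89). Its libraries at ZT14 lay below those of ZT2, ZT10 and ZT22 and overlapped those of ZT6 and ZT18, and its 3 mice of ZT6 differed as much as mice of different times (log2 range 0.69, edgeR, adjusted p = 0.0949). Fosb was at 4.70, 5.4 and 6.29 at ZT14 (5.46 ± 0.797) and at 8.01, 8.75 and 9.23 at ZT22 (8.66 ± 0.613), and with Ier2 it was 1 of 2 members for which all 3 libraries of ZT14 lay below all others, a pattern held by 0.938% of all genes. The means at ZT14 of the other members were 8.41 ± 1.18 for Junb, 7.44 ± 1.43 for Egr1, 3.62 ± 0.705 for Atf3, 10.8 ± 0.854 for Dusp1 and 7.60 ± 0.950 for Zfp36, and their highest means were 13.7 ± 0.623, 12.2 ± 0.882, 6.11 ± 1.80, 15.6 ± 2.07 and 13.2 ± 1.75, at ZT10 for all but Atf3, which was highest at ZT6. These 5 genes and Fos and Fosb did not pass the adjustment (adjusted p from 0.0554 for Fosb to 0.212 for Dusp1, edgeR). At an unadjusted p under 0.05, 9 of 10 members passed, all but Dusp1, against 25.3% of all genes. With DESeq2 8 of 10 members were called, against 14.5% of all genes. Fos at ZT22 (21.5 to 22.2) lay below ZT10 with no overlap, whereas ZT2 (18.6 to 27.4) and ZT6 overlapped both.

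**Figure D1:**
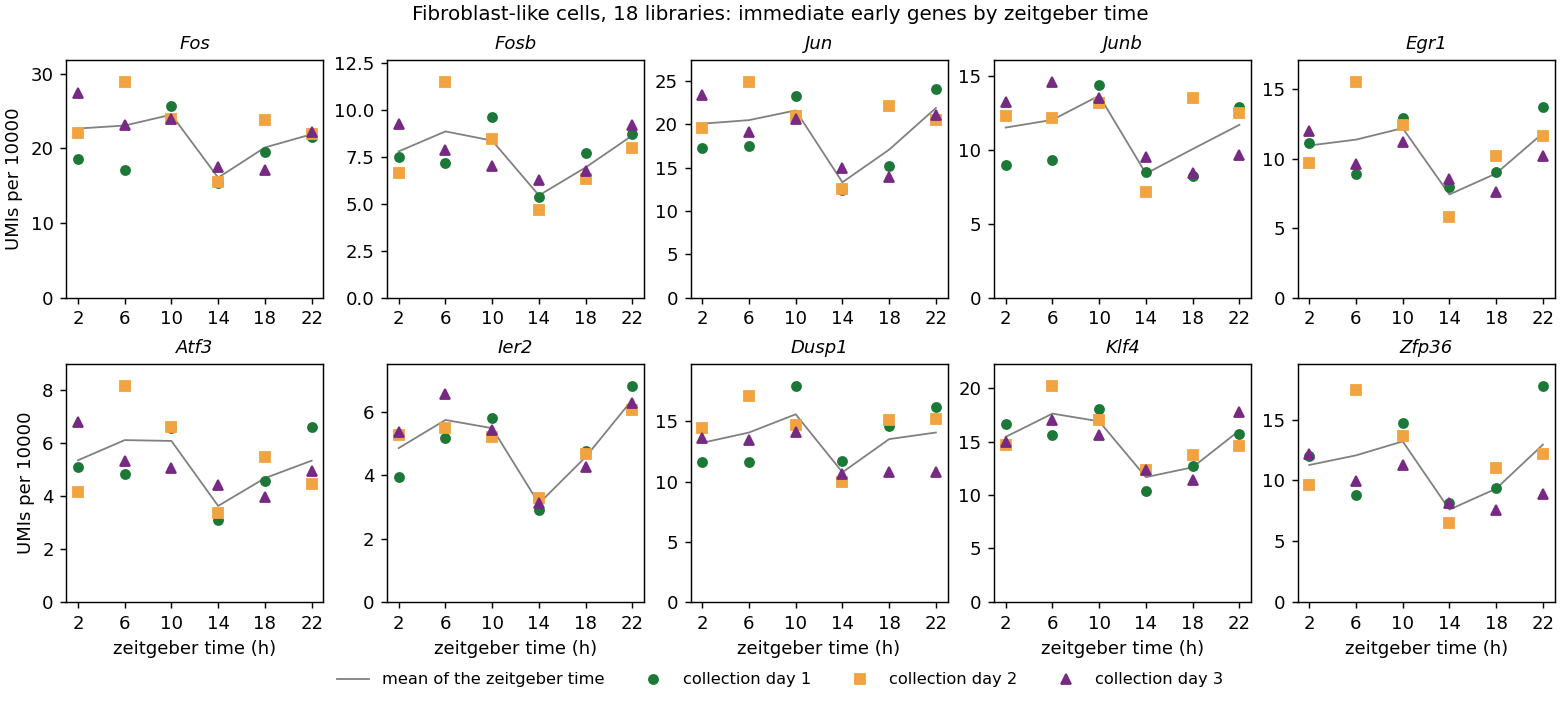
Level of each gene in fibroblasts (vertical axis, UMIs per 10000, from 0) by zeitgeber time (horizontal axis, h), with 1 point per library, its shape and colour giving the collection day, and a line through the means of the 3 libraries. The line is lowest at ZT14 in all 10 panels, and the points of ZT14 lie below all others for Ier2 and Fosb.

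The level at ZT14 was also compared within each of the 3 collection days. ZT14 had been picked as the lowest mean of these same libraries, so the values describe it and are no further test. The share of all genes with the same pattern was not counted. In fibroblasts the library of ZT14 was below the mean of the other times for 10 of 10 genes on the first, the second and the third day, by a median over the genes of -0.58, -0.75 and -0.30 on the log2 scale. It was the lowest library of its day for 8, 10 and 3 genes. Over all 18 libraries the lowest value of every gene was a library of ZT14, replicate 1 or 2, and the highest was ZT6 replicate 2 for 6 genes. That library held 182 fibroblasts and is 1 of the 2 that share barcodes.

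A 24 h rhythm, fitted as a cosine curve with free amplitude and peak time, was called for 1 of 10 genes in fibroblasts, against 13.5% of all genes. Klf4 had a log2 amplitude of 0.28 and a fitted peak at 4.73 h (edgeR, adjusted p = 0.0209). The call was lost without the 2 libraries that share barcodes (adjusted p = 0.0678) and in the largest fibroblast cluster alone (adjusted p = 0.18), and without ZT6 replicate 2 or without ZT18 replicate 3. A rank test after JTK_Cycle, the method of the study, called 0 of 10 (Klf4, adjusted p = 0.16), and DESeq2 called 1. Fitted amplitudes of all 10 genes were between 0.12 and 0.32, with peaks between 2.66 and 5.13 h, and 6 of 10 passed at an unadjusted p under 0.05 (edgeR), against 29.5% of all genes, whose median amplitude was 0.13. The clock genes Arntl, Dbp and Nr1d1, measured in the same cells, were all called.

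In macrophages, all 10 genes had their highest mean level on the third collection day, and Fos was called between days. The share of all genes with their highest mean on that day was not counted, and the 10 genes share the same libraries. Fos stood at 7.84, 11.8, 14.8, 15.4 and 16.1 UMIs per 10000 in the 5 libraries of the first day (13.2 ± 3.41), between 11.3 and 21.6 with a median of 17.9 on the second (17.0 ± 4.35, n = 6) and between 15.8 and 39.8 with a median of 26.4 on the third (26.8 ± 9.01, n = 6). The third day lay above the first at each of the 5 zeitgeber times measured on both, by 1.34 to 2.77 times, and above the second at each of 6, although the ranges of the days overlapped. With the zeitgeber time in the fit, Fos differed between the days by 1.11 on the log2 scale from the first to the third (edgeR, adjusted p = 0.0175). It was the 1 member called, and the 1 gene of 9521 (0.0105%).

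Jun was at 13.8 ± 3.44 (n = 5), 17.0 ± 4.2 and 22.8 ± 6.49 UMIs per 10000 (n = 6 each) on the 3 days, and Ier2 at 1.4 ± 0.636, 1.62 ± 0.368 and 2.84 ± 1.16. Klf4 was at 6.91 ± 2.32, 6.88 ± 2.52 and 12.6 ± 6.43. For Jun, Ier2 and Klf4 alike the first and the second day did not differ beyond their spread. Fos, Jun, Atf3, Ier2 and Klf4 were higher on the third day than on the first at all 5 times (5 of 10 genes, against 3.82% of all genes), and Fos, Fosb, Jun, Egr1, Atf3, Ier2 and Klf4 were higher on the third day than on the second at all 6 (7 of 10, against 1.49%). Dusp1 and Zfp36, which encode feedback regulators, and Junb were higher on the third day at most times but not at all of them.

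The log2 difference from the first to the third day was between 0.56 (Junb) and 1.16 (Ier2) over the 10 genes, with a median of 0.84, against -0.004 over all genes. At an unadjusted p under 0.05 all 10 members passed in edgeR, against 6.87% of all genes. DESeq2 called 7 of 10, all but Junb, Egr1 and Zfp36, against 0.221% of all genes. In the larger macrophage cluster alone 9 of 10 were called by edgeR, all but Zfp36, against 0.188% of all genes, with log2 differences of 1.1 to 2.01. Without the 2 libraries that share barcodes 0 of 10 were called by edgeR, and Fos then differed by 1 on the log2 scale (adjusted p = 0.325). ZT10 replicate 3, 1 of these 2, had the highest level of 9 of the 10 genes in macrophages. The call of Fos was also lost in 9 of the 17 fits that left out 1 library. The summed level of 5 red blood cell markers in macrophages, all detected, had day medians of 1.90 (1.56 to 14.1), 5.35 (2.07 to 41.9) and 7.07 (0.113 to 110) UMIs per 10000, highest in ZT14 replicate 3, and that of the 6 fibroblast markers 21.3, 7.23 and 25.9. Their part in the difference between days was not tested.

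**Figure D2:**
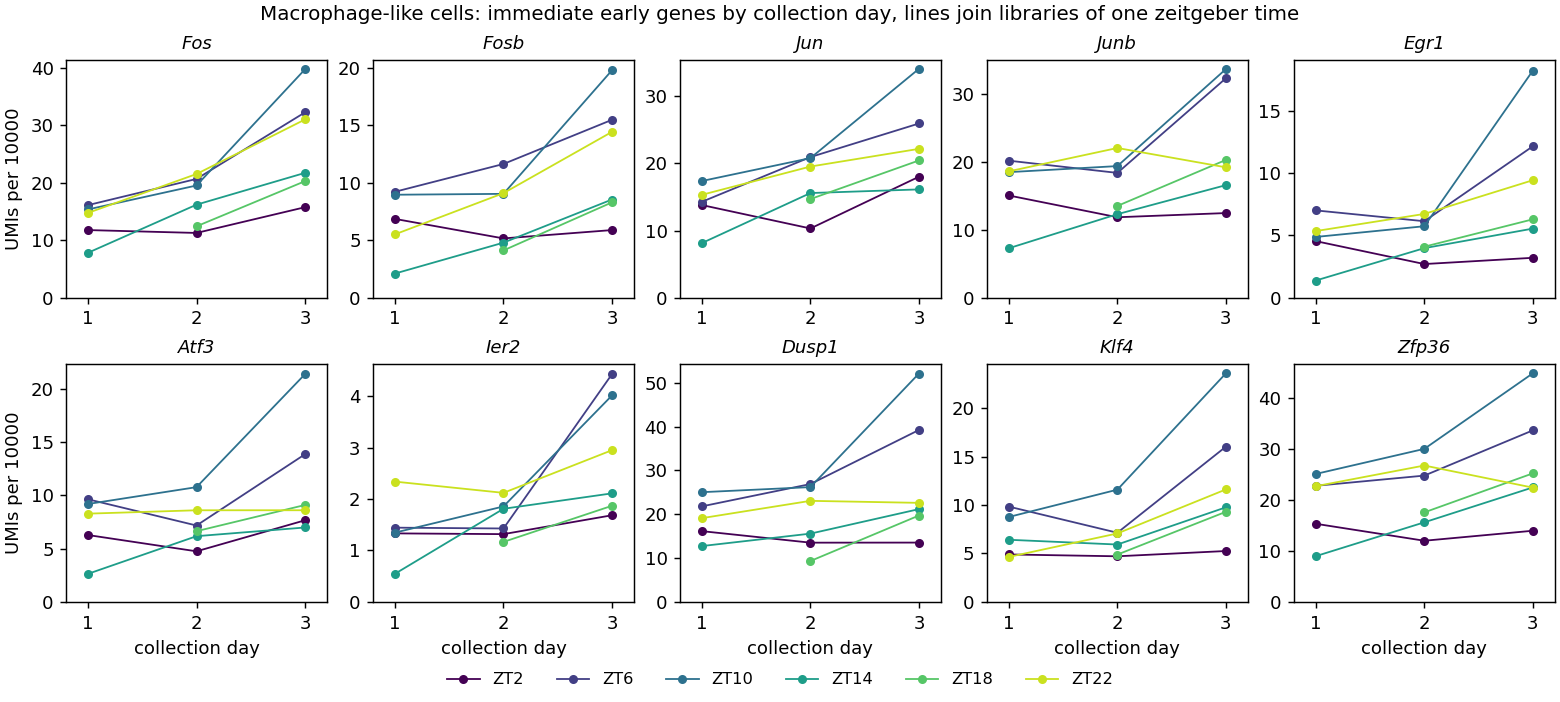
Level of each gene in macrophages (vertical axis, UMIs per 10000, from 0) by collection day (horizontal axis), with 1 point per library and lines joining libraries of the same zeitgeber time. For Fos and Jun every line ends higher on day 3 than on day 2, and ZT10 on day 3 is the highest point in 9 of 10 panels. ZT18 on day 1 had under 20 macrophages and is not drawn.

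In fibroblasts, Fos stood at 19.6 ± 3.65, 22.7 ± 4.36 and 21.9 ± 3.97 UMIs per 10000 on the 3 days (n = 6 each), and over the 10 genes the log2 difference from the first to the third day was between -0.28 and 0.13. By edgeR, 0 of 10 were called (adjusted p from 0.603 to 0.998), 0 of 10 passed at an unadjusted p under 0.05 and DESeq2 called 0, while 0% of all genes were called and 10.9% passed unadjusted. In the largest fibroblast cluster alone, Fos (log2 difference 0.59, adjusted p = 0.0025), Atf3 (0.63, 0.0422) and Fosb (0.44, 0.0357) were called by edgeR, 3 of 10 against 0.572% of all genes. The difference between the cell types in the change over days was tested as an interaction. It was between 0.48 and 1.16 on the log2 scale, higher in macrophages for 10 of 10 genes, and called for 0 of 10 by edgeR (9 unadjusted), as for 0% of all genes (7.02% unadjusted). DESeq2 called Klf4 (0.92, adjusted p = 0.0295) and Fos (0.98, adjusted p = 0.0297), 2 of 10 against 0.162% of all genes, and between the largest clusters of each type edgeR called Klf4 and Dusp1, 2 of 10 against 0.0415%.

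Among zeitgeber times, 9 of the 10 genes had their highest mean in macrophages at ZT10, and Ier2 at ZT22, while the mice of a time differed widely. The share of all genes with their highest mean at ZT10 was not counted. Zfp36 was at 25.1, 30.1 and 44.9 UMIs per 10000 at ZT10 (33.4 ± 10.3), at 8.99, 15.6 and 22.5 at ZT14 (15.7 ± 6.76) and at 12.0, 14 and 15.4 at ZT2 (13.8 ± 1.68). The libraries of ZT10 lay above all those of ZT2 and ZT14. Dusp1 was at 25, 26.2 and 52.1 at ZT10 (34.5 ± 15.3) and at 12.7, 15.6 and 21.2 at ZT14 (16.5 ± 4.29), again with no overlap. Without a term for the day 0 of 10 genes were called among zeitgeber times by edgeR, against 0.746% of all genes, with Dusp1 (adjusted p = 0.0726) and Zfp36 (0.0743) the nearest, while 8 of 10 passed at an unadjusted p under 0.05, against 11.6%. With the replicate number, which is the day, as a block, 6 of 10 were called, against 0.935% of all genes: Klf4 (adjusted p = 0.0071), Dusp1 (0.0104), Zfp36 (0.0185), Fos (0.0251), Fosb (0.0374) and Atf3 (0.0479). DESeq2 without the block called Zfp36, Junb and Dusp1, 3 of 10 against 2.54%. Without the 2 libraries that share barcodes 0 of 10 were called by edgeR and 6 passed unadjusted, a count given without the share of all genes in that fit.

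Within each day the library of ZT10 lay above the mean of the other times for 10 of 10 genes in macrophages, by a median of 0.49, 0.45 and 1 on the log2 scale, and that of ZT14 lay below it for 10, 9 and 10 genes. The library of ZT14 was the lowest of its day for 9, 0 and 2 genes. These times had been picked from the same libraries, so the counts are a description and no further test. The share of all genes with these patterns was not counted. A 24 h rhythm was called for 0 of 10 genes in macrophages by edgeR, against 0.693% of all genes, and DESeq2 called 0. At an unadjusted p under 0.05 Klf4 and Dusp1 passed, 2 of 10 against 12.3%. An interaction of rhythm with cell type was called for 0 of 10 (1 unadjusted, Klf4) by edgeR and 0 by DESeq2, against 0.458% of all genes (10.1% unadjusted).

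The spread between libraries was split into a share between zeitgeber times and a share between days. In fibroblasts the zeitgeber time held a median of 56.7% of the variance of the log2 level over the 10 genes, from 41.1% (Dusp1) to 88.8% (Ier2), against a median of 40.8% over all genes, and the day held 2.83%, against 9.01%. In macrophages the zeitgeber time held 52.1%, against 36.8% over all genes, and the day 26.1%, from 14.5% (Zfp36) to 50.8% (Fos), against 10.4%. Labels given at random would hold 29.4% for zeitgeber times and 11.8% for days in fibroblasts, and 31.2% and 12.5% in macrophages. More groups take a larger share, so the shares of time and day cannot be compared directly. The SD within a zeitgeber time on the log2 scale was 0.14 to 0.345 in fibroblasts and 0.39 to 0.72 in macrophages. The SD that counting alone gives was 0.00986 to 0.0207 and 0.0322 to 0.116. In macrophages the biological coefficient of variation from edgeR was 0.259 to 0.412, against a median of 0.168 over all genes, and in fibroblasts 0.11 to 0.221, against 0.113.

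Measures of library quality were set beside the macrophage levels. The median number of UMIs per macrophage was 13129, 11697 and 11233 on the 3 days and the mean mitochondrial share 4%, 4.66% and 4.47% (medians over libraries). ZT14 replicate 1, the lowest library for 8 of the 10 genes, had 24833 UMIs per macrophage and the lowest mitochondrial share, 3.70%. The relations over 17 libraries were computed with the mean of each zeitgeber time subtracted from both values, and libraries were permuted within zeitgeber times. Pearson's r between the level and the median UMI count was negative for 10 of 10 genes. It was from -0.848 to -0.297 (Spearman's rho -0.784 to -0.297), and from -0.642 to -0.232 without the 2 libraries farthest from the median. With the mitochondrial share, treated in the same way, r was 0.339 to 0.784. Of 40 such relations 0 passed adjustment (lowest adjusted permutation p = 0.127), as in fibroblasts (lowest adjusted permutation p = 0.967). The part of quality in the difference between days was not tested. With fewer than 5% mitochondrial UMIs required per cell 0 of 10 genes were called between days. This limit also left fewer cells, 1290 of 1682 macrophages, and 16 libraries with at least 20 of them.

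Across mice, the level of each gene in macrophages was compared with its level in the fibroblasts of the same library. Pearson's r was between 0.179 and 0.545 over the 10 genes and Spearman's rho between 0.0907 and 0.549 (n = 17), and 0 of the 10 relations passed (lowest permutation p = 0.0235, Ier2, 0.156 when adjusted over the 10 relations computed). With the 2 farthest libraries left out r was between 0.0813 and 0.47, and with the mean of each zeitgeber time subtracted between -0.442 and 0.377 (lowest adjusted permutation p = 0.654). Within the days the median r over the genes was 0.646 (n = 5), 0.464 (n = 6) and 0.23 (n = 6). By contrast, the members moved with each other within a cell type: the median r over the 45 pairs was 0.769 in fibroblasts and 0.867 in macrophages, and 0.559 and 0.854 with the zeitgeber time subtracted. These correlations describe genes that share libraries and depth and carry no test.

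Compared with fibroblasts, macrophages held more RNA of some members and less of others. Zfp36 was at 8.99, 22.7 and 44.9 UMIs per 10000 (lowest, median and highest of 17 libraries) in macrophages and at 6.50, 10.5 and 17.8 in the 18 libraries of fibroblasts. It was higher in macrophages in 17 of 17 libraries, by 0.97 ± 0.599 on the log2 scale, and edgeR with the library as a block gave 0.90 (adjusted p = 2.05e-06). Atf3 (log2 0.57, higher in 15 of 17 libraries), Junb (0.55, 13 of 17) and Dusp1 (0.54, 14 of 17) were also higher, so 4 of 10 genes were called higher, against 37.4% of all genes (edgeR). Ier2 was at 0.546, 1.81 and 4.43 in macrophages against 2.91, 5.25 and 6.84 in fibroblasts and was lower in macrophages in 17 of 17 libraries, by -1.53 (edgeR, adjusted p = 2.38e-10). Egr1 (log2 -1, higher in 2 of 17 libraries), Klf4 (-0.99, 1 of 17) and Fos (-0.32, 6 of 17, adjusted p = 0.0253) were lower as well, 4 of 10 against 43.8% of all genes. Jun (-0.21, adjusted p = 0.0741) and Fosb (-0.04, adjusted p = 0.819) were not called by edgeR. For all 10 genes the ranges of both cell types overlapped, and the shares called in each direction lie near those of all genes. The call of Fos was lost with library totals in place of the scaling by trimmed means (adjusted p = 0.0671). Without the 2 libraries that share barcodes Jun was called lower as well (adjusted p = 0.0397).

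The mean ratio of macrophages over fibroblasts was highest on the third day for all 10 genes, and the share of all genes with this pattern was not counted. The mean log2 ratio of macrophages over fibroblasts for Fos was -0.60 ± 0.325 on the first day (higher in macrophages in 0 of 5 libraries), -0.44 ± 0.44 on the second (1 of 6) and 0.24 ± 0.537 on the third (5 of 6). For Jun it was -0.46 ± 0.163, -0.26 ± 0.44 and 0.26 ± 0.40, and for Egr1 -1.39 ± 0.77, -1.16 ± 0.455 and -0.31 ± 0.906. Fos and Jun thus stood lower in macrophages on the first and second day and higher in most libraries of the third. For Zfp36 (0.60, 0.84 and 1.42) and Ier2 (-1.90, -1.64 and -0.93) the direction was that of the pooled value on every day.

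Muscle cells held little RNA of any member. Fos was at 0.696, 1.11 and 3.65 UMIs per 10000 (lowest, median and highest of 12 libraries) and Jun at 0.362, 0.932 and 2.75. Fosb, whose median was 0.0565, was at 0 in 2 of the 12, and Dusp1 and Klf4 were at 0 in 1 library each. With 3 counts as the limit that 0 allows, these libraries could hold up to 0.0913 and 0.155 UMIs per 10000 of Fosb, 0.119 of Dusp1 and 0.0913 of Klf4, counting error alone considered. No muscle library reached the lowest fibroblast library for any of the 10 genes, against 51.9% of all genes with the same pattern, and for 9 of 10, all but Ier2, none reached the lowest macrophage library, against 48.6%. The mean level was 1.84% (Fosb) to 7.14% (Junb) of that in the fibroblasts of the same libraries and 1.17% (Zfp36) to 16.4% (Ier2) of that in macrophages. All 10 genes were called lower than in fibroblasts, against 46.6% of all genes lower and 36.5% higher, and lower than in macrophages, against 51.9% lower and 36.8% higher (edgeR).

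The fitted log2 differences of muscle cells were -2.57 (Ier2) to -4.98 (Klf4) from fibroblasts and -1.69 (Ier2) to -5.54 (Zfp36) from macrophages. They are on the scale of trimmed means, which gives smaller differences than the levels per 10000 UMIs. The median of all genes was -0.40 and -0.66 in these fits, and -0.08 between macrophages and fibroblasts, so that the median of the members lay -2.73, -3.38 and -0.04 from it. With library totals in place of the scaling by trimmed means, 1979 of 8502 genes called between muscle cells and fibroblasts were higher, against 3440 of 7825, and 1570 of 5265 against 2158 of 5198 between muscle cells and macrophages. The 10 genes were called lower under each scaling and without the 2 libraries that share barcodes. The sum of 6 fibroblast markers in muscle cells was 0.0627% to 13.5% of that in fibroblasts (median 0.227%), and the sum of the 10 genes 1.95% to 13.7% (median 3.98%). Both were highest in ZT18 replicate 3 and next in ZT22 replicate 3, and 2 of 8 macrophage markers were at 0 in muscle cells. The part of RNA from other cells in the muscle values was not tested. The mean mitochondrial share was 0.0454% to 0.812% in muscle cells of the libraries tested and 2.15% to 2.81% in fibroblasts, and its relation to the muscle levels was not tested. Over time and days, by edgeR 0 of 10 genes were called in muscle cells for a rhythm (4 unadjusted, against 0.0698% of all genes called and 6.88% unadjusted), 0 among zeitgeber times (1 unadjusted, against 0.0233% and 2.88%) and 0 between days (3 unadjusted, against 0% and 6.81%), and DESeq2 called 0 in each. Without the 2 libraries that share barcodes 5 of 10 were called between days by edgeR, against 5.11% of all genes. The summed level of the 6 fibroblast markers in muscle cells had day medians of 1.07 (0.876 to 17.7), 1.87 (1.19 to 19.7) and 21.6 (0.476 to 98.1) UMIs per 10000, and its part in the difference between days was not tested.

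**Figure D3:**
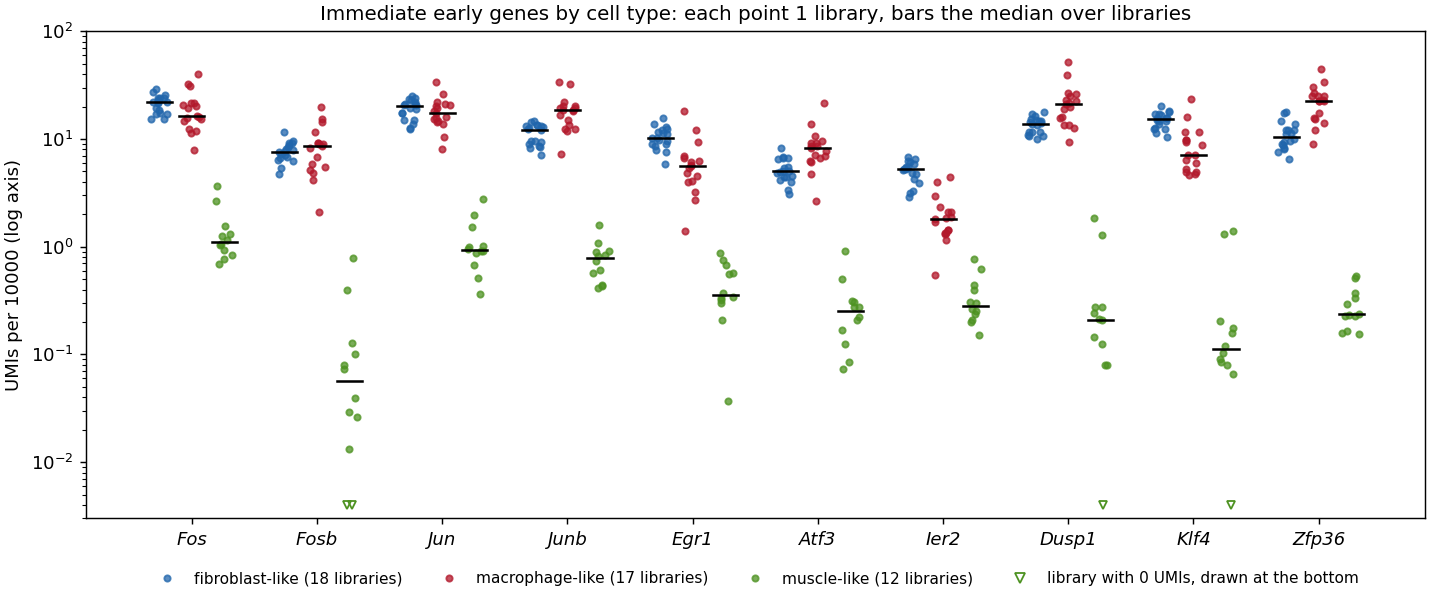
Level of each gene (vertical log axis, UMIs per 10000) in fibroblasts, macrophages and muscle cells, with 1 point per library, black bars at the medians and open triangles at the bottom for muscle libraries with 0 UMIs. Muscle cells lie below fibroblasts for all 10 genes, while fibroblasts and macrophages overlap.

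All 10 genes were higher in the smaller of the 2 macrophage clusters, although they had not been used for clustering. Cluster 4 held 371 cells, with Cd74 and H2-Aa, which encode parts of the antigen-presenting machinery, leading its genes, and cluster 15 held 1311 cells, with Retnla and C1qa leading. Zfp36 was at 73.6 UMIs per 10000 in cluster 4 and at 7.90 in cluster 15, Dusp1 at 62.2 and 10.0, and Atf3 at 30.3 and 2.50. Fos and Jun were both at 44.0 in cluster 4, against 10.5 and 9.68 in cluster 15. Ier2 differed least, with 2.74 and 1.66. No test was run between the clusters, which were themselves drawn from the expression of these cells.

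Cluster 4 made up between 10.1% and 39.2% of the macrophages of a library, with a median of 19.3%. Its share was 38.8%, 38.3% and 39.2% at ZT10 on the 3 days, the highest of each day. Its median by day was 22.1% (10.1% to 38.8%), 16.6% (11.6% to 38.3%) and 19.7% (12.5% to 39.2%). The part of this share in the differences between times or days was not tested. Within cluster 15, Fos was at 3.39, 4.63, 7.84, 7.93 and 9.69 UMIs per 10000 on the first day (6.70 ± 2.60, n = 5), between 5.71 and 18.6 with a median of 10.5 on the second (11.1 ± 5.13, n = 6) and between 11.3 and 25.9 with a median of 19.5 on the third (18.9 ± 6.17, n = 6). The third day did not overlap the first. In cluster 4, Fos was at 36.7 ± 4.19 (n = 4), 46 ± 7.61 (n = 5) and 53.1 ± 8.69 (n = 6) in libraries with at least 10 of its cells.

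**Figure D4:**
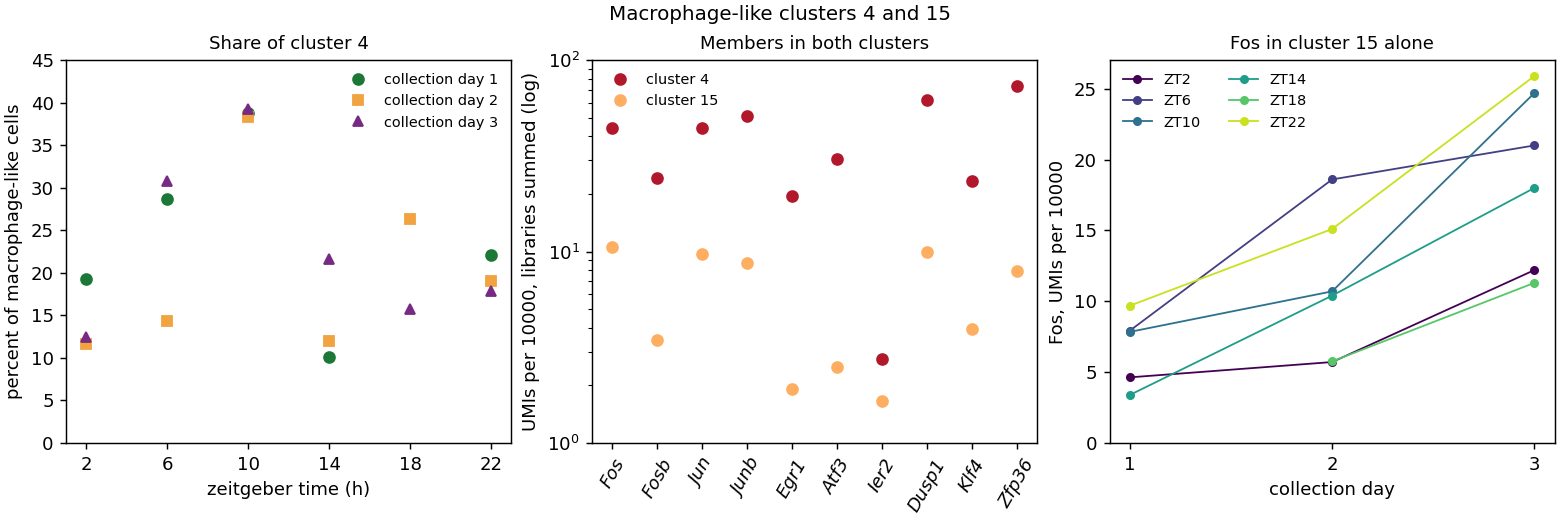
Left, percent of macrophages in cluster 4 by zeitgeber time (h), with 1 point per library. Centre, level of each gene in clusters 4 and 15 (log axis, UMIs per 10000, libraries summed). Right, Fos in cluster 15 alone (UMIs per 10000) by collection day, with lines joining libraries of a zeitgeber time. The share peaks at ZT10 on all 3 days, and Fos in cluster 15 is higher on day 3 than on day 2 at all 6 times.

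Fibroblast clusters differed as widely. The 10 genes were highest in cluster 18 (322 cells), led by Ptx3, Has1, Tnfaip6, Cxcl1 and Il6, genes of matrix and inflammatory signalling, and 9 of 10 were lowest in cluster 5, the largest. Zfp36 was at 62.5 UMIs per 10000 in cluster 18 and at 2.28 in cluster 5, and Fos at 65.9 and 9.23. Klf4, lowest in cluster 11, ranged less, from 10.4 to 30.1. Cluster 18 made up 0.366% to 7.73% of the fibroblasts of a library, the most in ZT22 replicate 1, where Zfp36 was at its highest fibroblast level of 17.8 UMIs per 10000. It was the least in ZT14 replicates 1 and 2, with 0.366% each (1 and 2 cells), the libraries that held the lowest fibroblast level of every member. It was 1.55% in ZT14 replicate 3, and 1.1% in ZT6 replicate 2, the library with the highest fibroblast level of Fos. The part of cluster 18 in these levels was not tested. In the largest fibroblast cluster alone 5 of 10 genes were called among zeitgeber times by edgeR (Klf4, Jun, Zfp36, Ier2 and Egr1). The share of all genes called in that fit is given below, with the dependence on processing.

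In single cells, the members were detected in most fibroblasts but a minority of cells held much of their RNA. Each cell was thinned to 5000 UMIs so that cells of unequal depth could be compared, which left out 246 of 12127 fibroblasts, 238 of 1682 macrophages and 238 of 735 muscle cells with fewer UMIs. Median depth before thinning was 22180, 12178 and 6601 UMIs. Klf4 had a UMI in 95.9% of thinned fibroblasts (99.1% unthinned), Jun in 89.3% (97.0%), Fos in 83% (91.9%) and Atf3 in 36.6% (54.3%). In macrophages Junb was detected in 77.4% of thinned cells (89.1% unthinned), Fos in 69.4% (81.1%) and Egr1 in 37.2% (48.0%). In muscle cells, which held the least of these genes, the share of thinned cells was 3.62% (Fosb) to 28.8% (Jun), with Fos at 24.5%. How much of it was RNA from other cells was not tested. The 10% of fibroblasts with the most UMIs of a gene held 71.6% of the UMIs of Atf3, 63.0% of those of Zfp36 and 32.8% of those of Klf4, and the same share of macrophages held 71.3% of those of Egr1 and 65.0% of those of Atf3.

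All 10 genes were detected together in 18.7% of thinned fibroblasts, 13.6% of macrophages and 0.201% of muscle cells, and none of them in 0.101%, 0.97% and 36.0%. The summed UMIs of the 10 genes per cell were 10, 33 and 132 at the 10th percentile, the median and the 90th percentile of fibroblasts, 3, 22 and 219 in macrophages and 0, 1 and 5 in muscle cells. Within libraries the macrophage median was below the fibroblast median in 12 of 17 and above it in 5, of which 4 were among the 6 libraries of the third day, and the 90th percentile was above in 15 of 17. Within single libraries the 90th percentile was 11.2 times the 10th in fibroblasts and 44.8 times in macrophages (medians over 18 and 17 libraries), so the spread was within mice and not only between them. The genes were high in the same cells: the correlation of a pair over the cells of a library had a median of 0.458 in fibroblasts (0.275 to 0.69 over pairs) and 0.651 in macrophages (0.244 to 0.807), which is a description of cells that share a library and a depth.

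**Figure D5:**
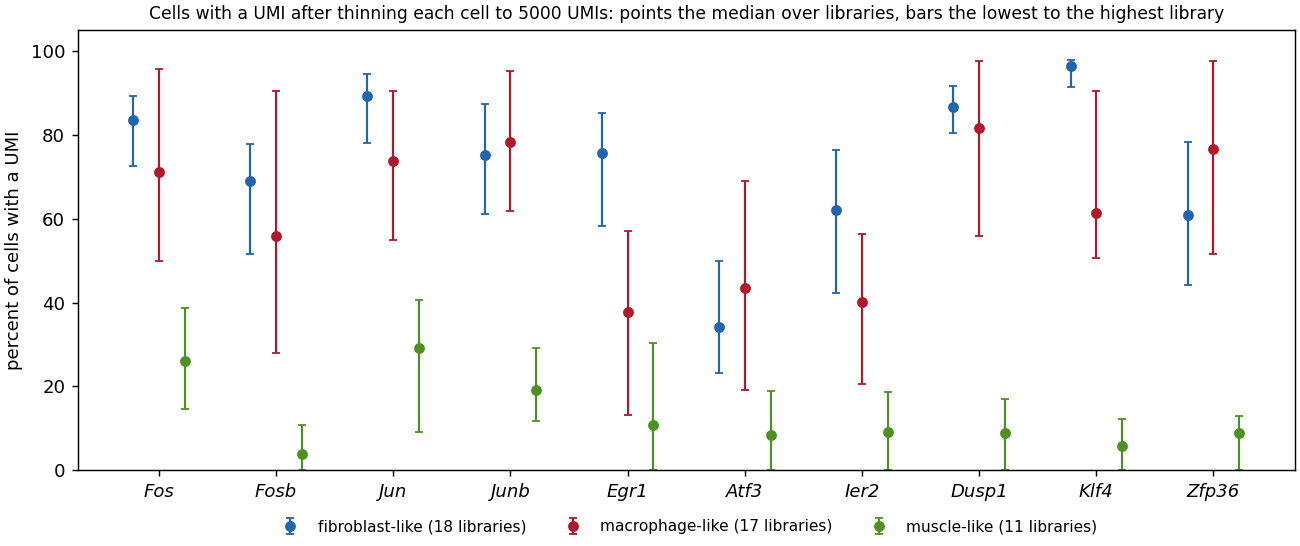
Percent of cells with at least 1 UMI of each gene (vertical axis) after thinning to 5000 UMIs, in fibroblasts (18 libraries), macrophages (17) and muscle cells (11). Points are medians over libraries and bars run from the lowest to the highest library, so the macrophage bars are longer than the fibroblast bars for all 10 genes.

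Genes outside the list that followed the mean of the members over libraries most closely were, in fibroblasts, Ppp1r15a (r = 0.928), Birc3 (0.882), Ccnl1 (0.874), Btg2 (0.859), Dazap2 (0.856), Hspb8 (0.851), Ifrd1 (0.845) and H3f3b (0.837) of 12794 genes and 18 libraries. In macrophages they were Jund (0.949), Klf6 (0.927), Neat1 (0.923), Nfkbiz (0.911), Btg2 (0.91), Zfp36l1 (0.903), Clec4b1 (0.90) and Ccnl1 (0.90) of 9521 genes and 17 libraries. The members themselves had r of 0.843 to 0.969 and 0.863 to 0.976 with their own mean. Btg2 and Ccnl1 were in both lists.

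A list of 29 other immediate early genes was tested in the same fits. In fibroblasts 7 of 29 were called among zeitgeber times by edgeR, against 8.72% of all genes, with Myc (log2 range 1.19, adjusted p = 0.0136) and Ppp1r15a (0.84, 0.0174) first. For a rhythm 4 of 29 were called, near the 13.5% of all genes, with Ier3 (log2 amplitude 0.69, peak 9.60 h, adjusted p = 0.0076) and Myc (0.47, 7.01 h, 0.0156) first (edgeR). In macrophages 1 of 26 tested was called among zeitgeber times, against 0.746% of all genes, Klf10 (log2 range 1.2, edgeR, adjusted p = 0.00973). Between days 0 of 26 were called in macrophages by edgeR, against 0.0105% of all genes, while 10 passed at an unadjusted p under 0.05, with a median log2 difference of 0.51 from the first to the third day, against -0.004 over all genes. Egr3 (2.21, adjusted p = 0.233) and Klf6 (0.80, 0.246) were nearest. Macrophages had 14 of 27 higher and 9 lower than fibroblasts, which is near the 81.2% of all genes called in either direction, with Ccn2 (log2 -4.92) and Ccn1 (-4.27), matricellular genes, the most significant. In muscle cells 19 of 22 were lower than in fibroblasts, against 46.6% of all genes, and 1 was higher, Srf (3.60), which encodes serum response factor.

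Of 12 heat shock genes, 0 were called by edgeR between days in fibroblasts or macrophages (0 unadjusted in both) and 1 among zeitgeber times in fibroblasts, against 8.72% of all genes, Hspd1 (log2 range 0.75, adjusted p = 0.0212). Of 9 glucocorticoid-responsive genes, 3 were called for a rhythm in fibroblasts, against 13.5% of all genes. First were Per1, which is also a core clock gene (log2 amplitude 0.54, peak 8.39 h, edgeR, adjusted p = 0.00342), and Sgk1 (0.74, 8.29 h, 0.0279). In macrophages 1 was called, against 0.693%, Klf9 (0.69, 7.98 h, 0.039). Between days 0 of this list were called in either type (5 unadjusted in fibroblasts and 0 in macrophages). Of 9 mitogen-activated kinase feedback genes, 7 were tested in fibroblasts and 5 in macrophages, and 0 were called by edgeR for rhythm, zeitgeber time or day (between days 3 and 1 passed unadjusted). Of 10 cofactors and actin targets of serum response factor, 8 were tested in fibroblasts and 1 was called for a rhythm by edgeR, a share near that of all genes (13.5%), Mrtfa (adjusted p = 0.0363).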

How the data were processed

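Single cells of dorsal dermis were measured in 18 droplet libraries of 1 mouse each. The authors deposited UMI counts per gene and barcode, made with Cell Ranger 3.1.0 on mm10; introns, ambient RNA and doublet handling upstream are not given in the sources used here. Cells with 850 to 7800 genes and under 13% mitochondrial UMIs were kept, clustered in scanpy 1.11.5 (2000 variable genes, 30 components, 15 neighbours, Leiden resolution 0.8) without the 10 genes, the gene lists and the clock genes, and named by markers. Doublets were removed only in an alternative. Pseudobulk counts were tested with edgeR 4.0.16 (quasi-likelihood, trimmed-mean scaling, Benjamini-Hochberg over all genes), under R 4.3.3, once the scripts had been tested on simulated data. DESeq2 1.42.0 served as a second tool. Relations over libraries used 100000 permutations, and log2 levels a pseudocount of 0.01 UMIs per 10000. All tests were two-sided.

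The genes and lists were chosen with earlier results of these data known. Named besides the 10 genes are the 2 genes of each list with the smallest adjusted p and the 8 other genes most correlated with the mean of the members. Replicate numbers follow the collection day in the labels, so they pair the libraries. Same-numbered libraries had deviations from their group means correlated at a mean of 0.0481 in fibroblasts (-0.169 to 0.266) and 0.03 in macrophages (-0.427 to 0.386), and different-numbered ones at -0.0233 and -0.015.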

Additional observations from a re-analysis of the deposited data

Results flagged for a closer look

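Among 80 groups of 4 to 10 libraries, 2 held a library far from the others, and chance gives about 1 in 20 groups. On the second day Junb in fibroblasts was at 7.17 UMIs per 10000 in ZT14 replicate 2, and the next library was at 12.1. On the same day Klf4 in macrophages was at 11.6 in ZT10 replicate 2, and the next was at 7.14. The change from the first to the third day was greater in macrophages than in fibroblasts in DESeq2's interaction test by 0.921 for Klf4 (adjusted p = 0.0295) and by 0.984 for Fos (adjusted p = 0.0297) on the log2 scale, while edgeR's interaction test called neither (adjusted p = 0.354 for both).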

How the results depend on the processing

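The counts of members called give the dependence on processing, and its cause was not tested. Without a filter on low counts, 8 members were called among zeitgeber times in fibroblasts, 10 in macrophages and 5 in muscle cells (6.08%, 4.69% and 2.01% of all genes), 2 and 4 for a rhythm in macrophages and muscle cells (1.86% and 2.3%), and 10 and 5 between days in macrophages and muscle cells (1.82% and 1.83%). DESeq2 called 8 and 3 among times in fibroblasts and macrophages, 7 between days in macrophages and 2 for the change over days between the types. In the largest cluster, 0 were called for a rhythm, 5 among times (5.76% of all genes) and 3 between days in fibroblasts, 9 between days in macrophages and 2 for the change over days between types, and the log2 differences between days of Atf3 (0.628) and Fosb (0.438) in fibroblasts turned positive. Without the libraries that share barcodes, 0 were called for a rhythm in fibroblasts, 0 between days in macrophages and 5 between days in muscle cells. Marker scores per cell and a limit of 5% mitochondrial UMIs each gave 0 between days in macrophages, and doublet removal gave 2 among times there (1.34% of all genes). The rank test, adjusted over the 10 genes, gave 0 for the rhythm in fibroblasts.

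With the replicate number as a block, 6 members were called among times in macrophages, and it changed no other call. Leaving out 1 library at a time gave 0 to 2 for the rhythm in fibroblasts, 2 to 5 among times in fibroblasts, 0 to 1 in macrophages, 0 to 4 between days in macrophages and 0 to 1 in muscle cells. Fos between days in macrophages was lost without ZT6 replicate 2 or 3, ZT10 replicate 1 or 3, ZT14 replicate 3, ZT18 replicate 2 or 3 and ZT22 replicate 1 or 3. Members lower in muscle cells stayed at 10 of 10 in every alternative. Thinning to 2500 UMIs gave median shares of cells with a UMI of 63.3%, 55.2% and 5.82% in fibroblasts, macrophages and muscle cells, against 75.7%, 66.8% and 9.56%.

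Over all genes, rhythm calls in fibroblasts went from 1722 to 801 with marker scores, and in macrophages from 66 to between 22 and 324. Calls among times went from 1116 to between 495 and 1861 in fibroblasts and from 71 to between 13 and 815 in macrophages, and between days from 0 to as many as 244 in fibroblasts and from 1 to between 0 and 316 in macrophages. In muscle cells calls went from 3 to between 1 and 320 for a rhythm, from 1 to between 0 and 280 among times and from 0 to as many as 254 between days. Muscle cells against macrophages gave 5198, and 9327 unfiltered. The rhythm interaction gave 51, and between 31 and 162, and the day interaction 0, and up to 18. Median depth was 22180, 12178 and 6601 UMIs per cell in fibroblasts, macrophages and muscle cells, and muscle libraries at 0 for Fosb, Dusp1 or Klf4 have an upper limit only.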
